A study of Mus musculus with 18 samples.

Results

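Acta2, Tagln, Myh11, Cnn1, Cnn2, Myl9, Mylk, Tpm1, Tpm2 and Actn1, 10 genes of the contractile apparatus that smooth muscle cells share with contractile myofibroblasts, were followed in 18 RNA-seq libraries of cells sorted from mouse hearts. They were taken by symbol, and each of the 10 symbols matched 1 of the 53342 gene identifiers in the count tables. The question was whether their levels went with isoproterenol (ISO), which activates beta-adrenergic receptors and so stresses the heart, or with the level of mural cell markers in a library. The cells were sorted as Thy1+, a surface protein of cardiac fibroblasts that other cells can carry too, and the labels add HE or HE- without spelling it out. The series title frames the study as a comparison of the response of cardiac fibroblasts to ISO between genetic backgrounds.

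The groups were C57BL/6, C3H/HeJ and KK/HlJ mice given ISO and sampled at day 14 or at day 21 after pump implantation, and sham mice of each strain, whose pumps held saline. All are inbred strains, and the labels name no transgene or induced allele. The labels of the sham libraries carry no day, so both ISO days of a strain were set against the same sham libraries. Each of the 9 groups had 2 libraries. Whether the libraries of a group came from different hearts or from pooled tissue is not labelled. The p-values therefore describe the scatter between libraries, part of which may be technical.

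In vascular smooth muscle, contraction starts when the kinase encoded by Mylk phosphorylates the regulatory light chain of myosin, encoded by Myl9, and the smooth muscle myosin heavy chain encoded by Myh11 then pulls on filaments of smooth muscle actin, encoded by Acta2. Tropomyosins (Tpm1, Tpm2), calponins (Cnn1, Cnn2) and transgelin (Tagln) bind those filaments, and alpha-actinin 1 (Actn1) cross-links them. Serum response factor and its partners of the myocardin family switch many of these genes on through CArG boxes. In the heart, smooth muscle cells of the coronary vessels carry the whole set. Pericytes, the other mural cells, carry some of it, and fibroblasts that turn into myofibroblasts after injury are known for taking up Acta2. Cnn2, Tpm1 and Actn1 are also used by cells that are not muscle.

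Total counts per library ran from 7230741 to 26280685. The 2 libraries of a group differed by more than counting noise in every group, the chi-square over its degrees of freedom being 59.0 to 158.5. Replicate 1 of each KK/HlJ group and of C3H/HeJ sham stood apart, 4 libraries with median correlations to the other libraries of 0.811 to 0.847. Levels are given in CPM, counts scaled to a common depth with edgeR's effective library sizes. Summed over genes, 12 resting fibroblast markers reached 78910 to 135187 CPM, of which Gsn, also used by other cells, gave 51839 to 108441 CPM and Dcn 7176 to 14886 CPM, while Pdgfra and Tcf21 had medians of 574 and 341 CPM, near that of the pericyte marker Rgs5 at 526 CPM. The other lists summed to less, with 16 pericyte markers at 1147 to 6542 CPM, 16 smooth muscle markers other than the 10 genes at 334 to 1000 CPM and the 10 genes themselves at 1035 to 3232 CPM. No pericyte marker was at 0 in any library, while Myocd, the smooth muscle coactivator myocardin, was at 0 in 10 of 18 libraries. In bulk RNA, fewer cells of a type cannot be told apart from less RNA per cell.

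All 10 genes were detected in all 18 libraries and entered every test. Per kilobase of exon, so that genes can be compared, Acta2 had the highest median level over libraries, 199 CPM per kb, followed by Myl9 at 157 and Tagln at 110 CPM per kb. Tpm1, Tpm2 and Cnn2 lay close together at median levels of 51.2, 49.8 and 49.5 CPM per kb. Actn1 followed at 12.7 and Myh11 at 7.74 CPM per kb, and Mylk at 5.14 and Cnn1 at 3.72 CPM per kb were lowest. Smooth muscle myosin was thus far below smooth muscle actin per length in these cells. The genes also differed in how far the 2 libraries of a group lay apart in CPM. For Tpm1 the higher library was 1.01 to 1.58 times the lower one over the 9 groups, whereas for Myh11 that ratio ran from 1.12 to 5.64, for Mylk from 1.08 to 4.26 and for Cnn1 from 1.26 to 5.08.

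**Figure D1:**
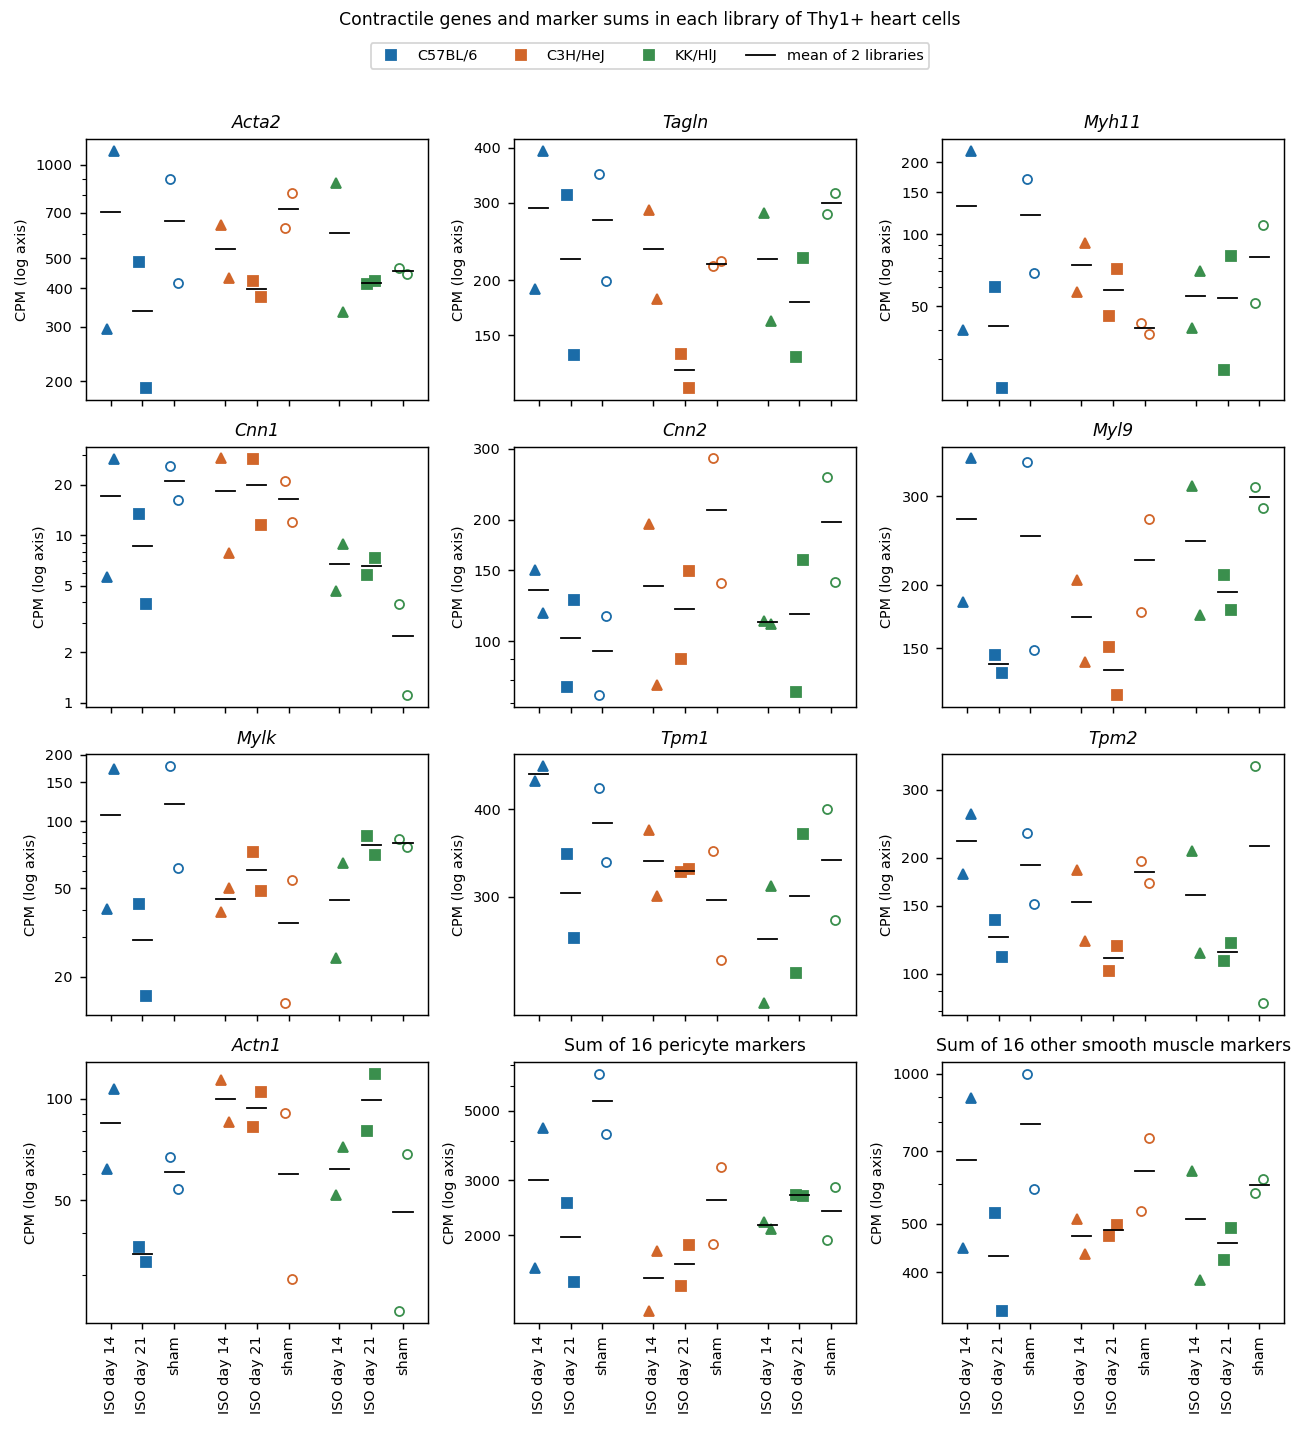
Level of the 10 contractile genes in each of the 18 libraries, with the summed level of 16 pericyte markers and of 16 other smooth muscle markers, in CPM on log axes; triangles are ISO day 14, squares ISO day 21 and open circles sham libraries, and bars are means of 2 libraries. The 2 C57BL/6 ISO day 14 libraries lie far apart for Acta2 (295.3 and 1111.6 CPM), Myh11 and Mylk, and the pericyte marker sum splits them the same way (1577 and 4405 CPM).

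Of the promoters that could be read, those of Cnn2 and Myl9 held an exact match to the CArG box, the motif bound by serum response factor. They are shown with the promoter of Acta2, the usual myofibroblast mark, in whose window no exact match lay. An exact match is CC, a run of A or T alone, and GG. Stretches that depart from it by a base were not counted, such as ccctatatgg and ccttgtttgg in Acta2 and ccttgtaagg in Myl9. Binding was not tested at any of them. RefSeq windows from 250 bases before to 50 bases after the gene start were found for 8 of the 10 genes on GRCm38.p6 and were searched on both strands, and Tagln and Myh11 had no window here. The RefSeq starts that set the windows differ from the ends of the mm10 gene spans given after the sequences. The 250 bases before the start therefore lie inside the span for Mylk and overlap it in part for every other gene with a window. A CArG box, a motif of 10 bases, lay in Cnn2 56 bases and in Myl9 161 bases before the start, counted to its first base. It was found in 1.63% of 32851 windows. The MCAT motif CATTCC, which does not overlap it, was found in the windows of Acta2, Mylk and Tpm1, and in 14.7% of all windows. The 250 bases before the start are given 5′ to 3′ on the strand of the gene, with the CArG box in capitals, for Cnn2 (chr10:79988350-79988599, plus strand), Myl9 (chr2:156775214-156775463, plus strand) and Acta2 (chr19:34255374-34255623, minus strand).
Cnn2: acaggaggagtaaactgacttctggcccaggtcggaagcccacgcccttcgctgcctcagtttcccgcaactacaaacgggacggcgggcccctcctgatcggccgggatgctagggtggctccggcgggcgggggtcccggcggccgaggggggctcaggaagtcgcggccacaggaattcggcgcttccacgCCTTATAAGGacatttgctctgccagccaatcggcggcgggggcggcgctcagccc
Myl9: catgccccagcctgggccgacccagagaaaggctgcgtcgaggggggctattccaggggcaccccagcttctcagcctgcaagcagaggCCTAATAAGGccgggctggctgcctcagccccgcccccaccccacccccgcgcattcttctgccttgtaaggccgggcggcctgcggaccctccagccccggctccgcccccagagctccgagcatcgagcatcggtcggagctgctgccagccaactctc
Acta2: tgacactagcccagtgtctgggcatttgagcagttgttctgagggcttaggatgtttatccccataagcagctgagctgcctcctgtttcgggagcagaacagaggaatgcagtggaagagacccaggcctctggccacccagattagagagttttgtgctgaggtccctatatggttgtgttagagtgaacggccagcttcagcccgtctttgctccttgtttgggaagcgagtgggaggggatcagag

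On mm10, the build the submitters name, Acta2 spans chr19:34241090-34255590, Tagln chr9:45929619-45936058, Myh11 chr16:14194535-14291372, Cnn1 chr9:22099216-22109630 and Cnn2 chr10:79988584-79996062. Myl9 spans chr2:156775420-156781658, Mylk chr16:34745210-35002420, Tpm1 chr9:67022590-67049406, Tpm2 chr4:43514711-43523765 and Actn1 chr12:80167547-80260371. All 10 are annotated as protein coding, and the counts cover whole genes, so the smooth muscle and non-muscle isoforms of Tpm1, Tpm2, Actn1 and Mylk are summed.

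Acta2, the usual mark of a myofibroblast, did not follow ISO at day 14. In C57BL/6 it stood at 295.3 and 1111.6 CPM at ISO day 14 and at 484.4 and 190.4 CPM at ISO day 21, against 901.2 and 416.7 CPM in sham. In C3H/HeJ it stood at 640.5 and 429.5 CPM at ISO day 14 and at 421.2 and 373.1 CPM at ISO day 21, against 623.5 and 814.2 CPM in sham. In KK/HlJ it stood at 874.1 and 334.2 CPM at ISO day 14 and at 411.0 and 421.2 CPM at ISO day 21, against 464.5 and 444.1 CPM in sham. At day 14, 2 of 6 ISO libraries exceeded both of their sham libraries and 3 lay below both. At day 21, 0 lay above and 5 lay below, and in C3H/HeJ and KK/HlJ both ISO day 21 libraries were under both sham libraries. Averaged over the 3 strains, the log2 fold change of ISO over sham was 0.03 (SE 0.34) at day 14 and -0.65 (SE 0.34) at day 21, with edgeR adjusted p of 1 and 0.953. Ordered by group mean, C3H/HeJ sham was highest (719 ± 135 CPM; SD, n = 2) and C57BL/6 ISO day 21 lowest (337 ± 208 CPM), and since the 2 libraries of the C57BL/6 ISO day 14 group alone spanned nearly the whole range, the groups between them were not separated by their spread.

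No member passed the test at either day. Over the 15762 genes tested, 0.0381% passed at an adjusted p under 0.05 for the mean of 3 strains at day 14 and 0.0444% at day 21, and 0 of 10 contractile genes did so at either day. At day 14 the members were split, with 5 positive and 5 negative values and a median log2 fold change of -0.03, beside 0.02 over all genes tested. At day 21, 8 of 10 were negative and the median was -0.51, beside 0.03 over all genes. At an unadjusted p under 0.05, 0 members stood out at day 14, where 5.51% of all genes did. At day 21 Myl9, Tpm2 and Tagln did, 3 of 10 beside 5.09% of all genes. DESeq2 and limma voom also passed 0 of 10 at each day. In the same fit Postn, which encodes periostin, a matrix protein of the activated fibroblast, rose at both days, with log2 fold changes of 2.38 at day 14 and 1.95 at day 21 (SE 0.23 each; edgeR adjusted p of 1.22e-05 and 0.00032). Postn was named because it was earlier known to rise with ISO in these data, so its rise is no independent evidence. Of 16 pericyte markers 0 passed, with medians of -0.60 at day 14 and -0.63 at day 21 over the strains. In KK/HlJ at day 21, however, their median was 0.06.

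**Figure D2:**
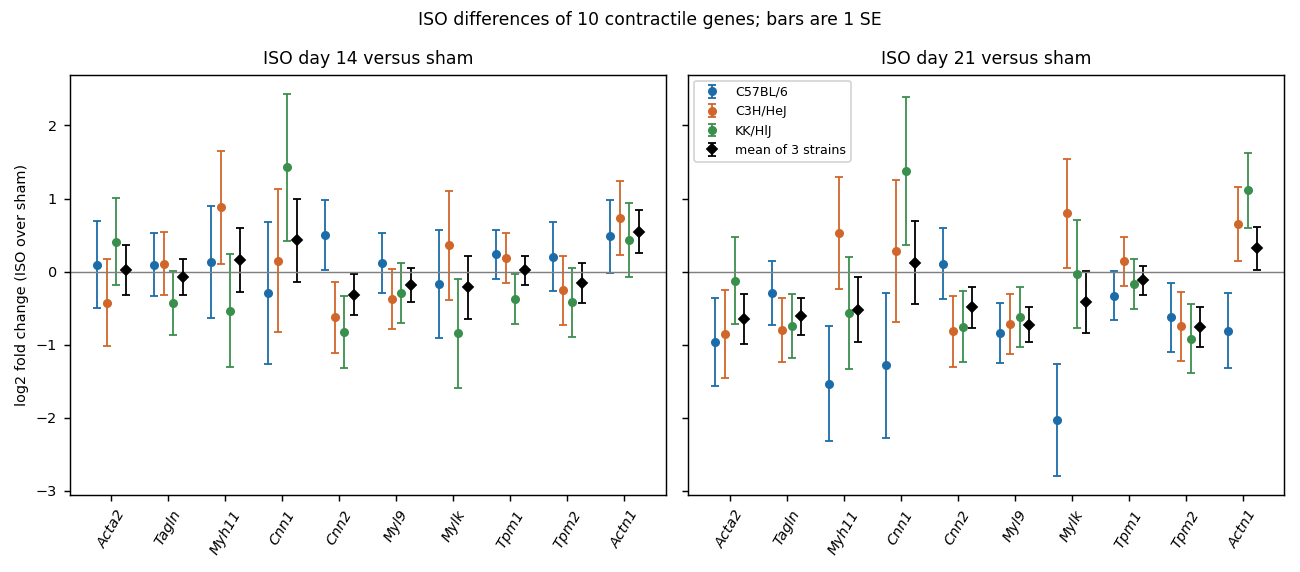
Log2 fold change of ISO over sham for the 10 contractile genes at day 14 (left) and day 21 (right), in each strain (circles) and averaged over the 3 strains (black diamonds), with bars of 1 SE. At day 21 the means of Myl9 (-0.73), Tpm2 (-0.76) and Tagln (-0.61) lie below 0 by more than 2 SE, and Actn1 lies on opposite sides of 0 in C57BL/6 (-0.81) and KK/HlJ (1.11).

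Myl9, the regulatory light chain that Mylk phosphorylates, was the member most evenly lower at day 21. In C57BL/6 it stood at 185.5 and 356.4 CPM at ISO day 14 and at 145.5 and 134.1 CPM at ISO day 21, against 350.5 and 149.3 CPM in sham. In C3H/HeJ it stood at 204.8 and 141.3 CPM at ISO day 14 and at 151.3 and 121.1 CPM at ISO day 21, against 177.4 and 270.6 CPM in sham. In KK/HlJ it stood at 313.9 and 175.0 CPM at ISO day 14 and at 209.7 and 178.9 CPM at ISO day 21, against 313.1 and 284.8 CPM in sham. All 6 ISO day 21 libraries lay below both sham libraries of their strain, although in C57BL/6 the lower sham library (149.3 CPM) was close to the higher ISO library (145.5 CPM). Over the 3 strains the log2 fold change at day 21 was -0.73 (SE 0.24; edgeR adjusted p = 0.889). Leaving out the 4 libraries that stood apart, replicate 1 of each KK/HlJ group and of C3H/HeJ sham, brought Myl9 (-0.83, edgeR adjusted p = 0.0127) and Acta2 (-0.69, edgeR adjusted p = 0.0484) under the threshold, where 3.18% of all genes then passed. A group with 1 library lets more genes through the default filter on low counts, so 17629 genes were tested in that fit and 17794 to 18017 with 1 library left out, in place of 15762. With the same 15762 genes tested, Myl9 (edgeR adjusted p = 0.253) and Acta2 (edgeR adjusted p = 0.711) did not pass without the 4 libraries. Of the 42 values of the 10 genes that newly passed with libraries left out, 2 passed with the same genes tested, both of Myh11.

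Tagln, which encodes the actin-binding protein transgelin, and Tpm2, the beta-tropomyosin gene, also had low values at day 21. Tagln stood at 312.1 and 135.3 CPM at ISO day 21, against 347.7 and 199.3 CPM in sham, in C57BL/6, and at 135.8 and 113.9 CPM at ISO day 21, against 214.9 and 221.2 CPM in sham, in C3H/HeJ. The KK/HlJ values were 133.7 and 223.9 CPM at ISO day 21, against 282.8 and 316.0 CPM in sham. At day 14 it was at 191.0 and 393.5 CPM in C57BL/6, 289.2 and 181.3 CPM in C3H/HeJ and 284.5 and 161.4 CPM in KK/HlJ. For Tagln 5 of 6 ISO day 21 libraries lay below both sham libraries, and the mean log2 fold change was -0.61 (SE 0.25; edgeR adjusted p = 0.953). Tpm2 stood at 137.7 and 110.6 CPM at ISO day 21, against 231.9 and 151.7 CPM in sham, in C57BL/6, and at 101.7 and 117.7 CPM at ISO day 21, against 196.2 and 171.8 CPM in sham, in C3H/HeJ. The KK/HlJ libraries had 107.6 and 119.9 CPM at ISO day 21, against 345.9 and 83.8 CPM in sham. The KK/HlJ sham libraries of Tpm2 were the highest and the lowest of all 18 libraries, so KK/HlJ overlapped where the other strains did not. Its mean log2 fold change was -0.76 (SE 0.27; edgeR adjusted p = 0.947). This value hung on KK/HlJ sham, since leaving out its replicate 2 gave -0.99 (edgeR adjusted p = 0.00862, with 0.562% of all genes past the threshold, and 0.061 with the same genes tested) and leaving out the 4 libraries that stood apart, its replicate 1 among them, gave -0.25 (SE 0.23). Tagln shares its locus with Pcsk7 on the other strand, so reads of the 2 genes could be mixed if the counting did not use strand.

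Of the 10 genes, Tpm1, the alpha-tropomyosin gene, varied least between libraries, its highest level being 2.18 times its lowest. It ranged from 211.5 to 460.9 CPM with a median of 332.2 CPM over the 18 libraries, and its mean log2 fold change was 0.02 (SE 0.19) at day 14 and -0.12 (SE 0.19) at day 21. Actn1 had positive mean values, 0.55 (SE 0.29; edgeR adjusted p = 0.904) at day 14 and 0.32 (SE 0.29; edgeR adjusted p = 1) at day 21. The strains went apart for Actn1 at day 21. It stood at 80.4 and 118.5 CPM in KK/HlJ ISO day 21 libraries, against 23.5 and 68.5 CPM in KK/HlJ sham, and at 36.4 and 32.8 CPM in C57BL/6 ISO day 21 libraries, against 67.3 and 53.8 CPM in C57BL/6 sham. The groups did not overlap in either strain and the directions were opposite. The KK/HlJ response exceeded the C57BL/6 response by 1.92 (SE 0.72; edgeR adjusted p = 0.708), which did not pass over all genes. Without KK/HlJ sham replicate 2 that difference was 2.89 and passed (edgeR adjusted p = 0.0146, with 1.58% of all genes), but not with the same genes tested (edgeR adjusted p = 0.0743), and without replicate 1 it was 1.34. In C3H/HeJ, Actn1 stood at 113.8 and 85.6 CPM at ISO day 14 and at 82.6 and 105.0 CPM at ISO day 21, against 90.7 and 29.3 CPM in sham. Without the 4 libraries that stood apart, C3H/HeJ sham replicate 1 among them, Actn1 passed in C3H/HeJ at day 14 (1.78, edgeR adjusted p = 0.0137, with 2.18% of all genes) and at day 21 (1.69, edgeR adjusted p = 0.0323, with 1.29% of all genes), and with the same genes tested at neither (edgeR adjusted p of 0.244 and 0.335). The non-coding genes Gm47765, Gm47766 and Gm47767 lie over the Actn1 locus.

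Within strains no contractile gene passed either, where the share of all genes that did was 0%, 0.0127% and 0% at day 14 and 0%, 0% and 0.019% at day 21 in C57BL/6, C3H/HeJ and KK/HlJ. In C57BL/6 at day 21, both ISO libraries lay below both sham libraries for 6 members, Myh11, Cnn1, Myl9, Mylk, Tpm2 and Actn1, where 20.7% of all genes did so, and for 0 members above both, where 16.3% did. In C3H/HeJ at day 21 it was 4 members below (Acta2, Tagln, Myl9 and Tpm2; background 16.6%) and 1 above (Myh11; 18.5%). In KK/HlJ at day 21 it was 3 below (Acta2, Tagln and Myl9; 11.1%) and 2 above (Cnn1 and Actn1; 14.4%). At day 14 the counts were smaller. In C57BL/6, Cnn2 and Tpm1 were above both sham libraries (12% of all genes), and 0 members were below both (19.1%). In C3H/HeJ, Myh11 was above (19%) and 0 were below (15%). In KK/HlJ, Cnn1 was above (12.8%) and Cnn2 and Mylk were below (10.1%). At an unadjusted p under 0.05, the members that stood out within strains were Mylk in C57BL/6 at day 21 (1 of 10, beside 2.07% of all genes) and Actn1 in KK/HlJ at day 21 (1 of 10, beside 5.23%). In C57BL/6 at day 14 (1.1%), C3H/HeJ at day 14 (3.07%), C3H/HeJ at day 21 (5.78%) and KK/HlJ at day 14 (4.74%) it was 0 of 10.

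Mylk, the gene of myosin light chain kinase, had the lowest log2 fold change of the 10 genes in C57BL/6 at day 21. In C57BL/6 it stood at 40.5 and 172.6 CPM at ISO day 14 and at 42.2 and 16.3 CPM at ISO day 21, against 177.3 and 61.7 CPM in sham. In C3H/HeJ it stood at 39.2 and 49.9 CPM at ISO day 14 and at 72.6 and 48.4 CPM at ISO day 21, against 15.2 and 54.2 CPM in sham. In KK/HlJ it stood at 24.2 and 64.6 CPM at ISO day 14 and at 85.7 and 70.9 CPM at ISO day 21, against 83.1 and 76.9 CPM in sham. The groups separated at day 21 only in C57BL/6, and at day 14 only in KK/HlJ, both with ISO below sham. In C57BL/6 the log2 fold change at day 21 was -2.03 (SE 0.77; edgeR adjusted p = 1). The C3H/HeJ response at day 21 was higher than the C57BL/6 response by 2.83 (SE 1.07; edgeR adjusted p = 0.798). Without C57BL/6 sham replicate 2 both passed, at -2.60 (edgeR adjusted p = 0.00894, with 0.15% of all genes) and 3.40 (edgeR adjusted p = 0.00904, with 0.144% of all genes). Mylk in C57BL/6 at day 21 also passed in 7 fits that left out a C3H/HeJ or KK/HlJ ISO library, with values of -2.02 to -2.03, and the difference in response passed in 6 of those 7. With the same genes tested, 0 of these values passed, the edgeR adjusted p being 1 for Mylk in C57BL/6 in each fit and 0.684 or more for the difference. The antisense genes 1700119H24Rik, E130310I04Rik and Gm21691 lie over the Mylk locus.

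Myh11, the smooth muscle myosin heavy chain, had no common direction. In C57BL/6 it stood at 39.7 and 223.8 CPM at ISO day 14 and at 60.3 and 22.9 CPM at ISO day 21, against 171.3 and 69.2 CPM in sham. In C3H/HeJ it stood at 57.4 and 91.8 CPM at ISO day 14 and at 45.4 and 71.6 CPM at ISO day 21, against 42.8 and 38.2 CPM in sham. In KK/HlJ it stood at 40.7 and 70.0 CPM at ISO day 14 and at 27.1 and 81.6 CPM at ISO day 21, against 51.5 and 109.0 CPM in sham. Both C3H/HeJ ISO groups lay above C3H/HeJ sham, the C57BL/6 ISO day 21 group lay below its sham, and the other groups overlapped. The mean log2 fold change was 0.16 (SE 0.44) at day 14 and -0.52 (SE 0.44) at day 21.

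The calponins did not go together. Cnn2, the calponin of cells beyond smooth muscle, stood at 149.9 and 117.2 CPM at ISO day 14 and at 76.9 and 126.3 CPM at ISO day 21 in C57BL/6, against 73.3 and 115.5 CPM in sham. In C3H/HeJ it stood at 195.3 and 77.9 CPM at ISO day 14 and at 90.3 and 149.4 CPM at ISO day 21, against 283.8 and 138.9 CPM in sham. In KK/HlJ it stood at 112.1 and 110.3 CPM at ISO day 14 and at 74.8 and 158.9 CPM at ISO day 21, against 254.6 and 139.9 CPM in sham. The highest 2 values belonged to replicate 1 of C3H/HeJ sham and of KK/HlJ sham, which are among the libraries that stood apart, and without the 4 such libraries the day 21 value over strains was 0.03, against -0.49 (SE 0.28) with them. Cnn1, the calponin of differentiated smooth muscle, was low in KK/HlJ. It stood there at 4.7 and 8.8 CPM at ISO day 14 and at 5.8 and 7.3 CPM at ISO day 21, against 3.9 and 1.1 CPM in sham, while in the other strains it ranged from 3.9 to 28.7 CPM.

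Between days, all 10 members were lower at day 21 than at day 14 in C57BL/6, with a median log2 fold change of -0.97 beside 0 over all genes, and at an unadjusted p under 0.05 Mylk (-1.86, SE 0.76), Actn1 (-1.29, SE 0.51) and Myl9 (-0.95, SE 0.41) stood out, 3 of 10 beside 3.44% of all genes. The sum of the 10 genes was 1654 and 1035 CPM at day 21, against 1590 and 3232 CPM at day 14, so the groups overlapped and the day 14 libraries lay far apart. In C3H/HeJ the median was -0.27, with Tagln (-0.91, SE 0.44) as the 1 of 10 at an unadjusted p under 0.05 (0.419% of all genes), and in KK/HlJ it was -0.04 with 0 of 10 (1.05%). No member passed in these comparisons, in which 0% of all genes did.

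Between strains without ISO, Cnn1 was lower in KK/HlJ sham (3.9 and 1.1 CPM) than in C57BL/6 sham (25.8 and 16.2 CPM), with a log2 difference of -3.06 (SE 1.06; edgeR adjusted p = 0.968). Set against C3H/HeJ sham (21.0 and 12.1 CPM), the KK/HlJ value was -2.71 (SE 1.05; edgeR adjusted p = 0.695). Cnn2 was higher in C3H/HeJ sham than in C57BL/6 sham by 1.16 (SE 0.49; edgeR adjusted p = 0.947) and in KK/HlJ sham than in C57BL/6 sham by 1.06 (SE 0.49; edgeR adjusted p = 0.968). Mylk was lower in C3H/HeJ sham than in C57BL/6 sham, the log2 difference being -1.78 (SE 0.76; edgeR adjusted p = 0.947). None of the 10 members passed in these comparisons, where 0.102% of all genes passed for C3H/HeJ over C57BL/6, 0.0508% for KK/HlJ over C57BL/6 and 0.152% for KK/HlJ over C3H/HeJ. At an unadjusted p under 0.05 it was 2 of 10 (beside 4.89% of all genes), 2 of 10 (3.96%) and 1 of 10 (6.33%) in that order. Without the 4 libraries that stood apart the Cnn2 values were 0.54 for C3H/HeJ and 0.56 for KK/HlJ over C57BL/6, while Cnn1 passed at -4.24 for KK/HlJ over C57BL/6 (edgeR adjusted p = 0.00392, with 1.79% of all genes), but not with the same genes tested (edgeR adjusted p = 0.273). The reads were mapped to mm10, the genome of C57BL/6, and the part of strain variants in these values was not tested.

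For the difference in response to ISO between strains, 0 of 10 members and 0% of all genes passed. At an unadjusted p under 0.05, Mylk stood out for C3H/HeJ over C57BL/6 at day 21 (1 of 10, beside 6.17% of all genes) and Actn1 for KK/HlJ over C57BL/6 at day 21 (1 of 10, beside 6.45%). For KK/HlJ over C3H/HeJ at day 21 it was 0 of 10 (3.39%), and at day 14 it was 0 of 10 for C3H/HeJ over C57BL/6 (1.71%), KK/HlJ over C57BL/6 (3.72%) and KK/HlJ over C3H/HeJ (3.32%).

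The level of pericyte markers differed as widely between libraries as that of the contractile genes. The 16 markers, such as Rgs5, Kcnj8, Abcc9, Cspg4 and Notch3, summed in C57BL/6 to 1577 and 4405 CPM at ISO day 14 and to 2543 and 1414 CPM at ISO day 21, against 6542 and 4211 CPM in sham. In C3H/HeJ they summed to 1147 and 1784 CPM at ISO day 14 and to 1373 and 1859 CPM at ISO day 21, against 1876 and 3306 CPM in sham. In KK/HlJ they summed to 2202 and 2101 CPM at ISO day 14 and to 2690 and 2672 CPM at ISO day 21, against 1931 and 2841 CPM in sham. All sham libraries of C57BL/6 and C3H/HeJ were thus above their ISO day 21 libraries in these markers, in C3H/HeJ by little, and those of KK/HlJ were not. Of the 16 markers 0 passed the ISO test at either day, with median log2 fold changes of -0.60 at day 14 and -0.63 at day 21 over the 3 strains. The 16 other smooth muscle markers also had 0 that passed, and median log2 fold changes of -0.27 and -0.62.

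To set the contractile genes against mural cell markers apart from ISO, strain and day, the log2 of the pericyte marker sum, which holds none of the 10 genes, was added to the fit as a score. Its slope uses the difference between the 2 libraries of each group alone and says by how much a gene's log2 level differs where the score differs by 1. Myh11 had a slope of 1.41 (SE 0.33; edgeR adjusted p = 0.334), Mylk of 1.34 (SE 0.33; edgeR adjusted p = 0.507) and Acta2 of 0.95 (SE 0.29; edgeR adjusted p = 0.916). A slope of 1 is what a gene would have that changes in proportion to the marker sum. Tagln had 0.56 (SE 0.26) and Myl9 0.46 (SE 0.25). Tpm1 (-0.06, SE 0.22), Tpm2 (0.01, SE 0.32) and Actn1 (0.20, SE 0.34) had slopes near 0, and Cnn1 had 0.42 with an SE of 0.74. Cnn2 went the other way, with a slope of -0.70 (SE 0.28; edgeR adjusted p = 0.981).

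In the edgeR fit, no member's slope passed over all genes, of which 0.0317% did. Those 5 genes were Notch3, Cspg4 and Abcc9, which are part of the score, and Ppp1r12b and Atp1b2. At an unadjusted p under 0.05 the slopes of 5 of 10 members stood out, those of Acta2, Tagln, Myh11, Cnn2 and Mylk, beside 4.47% of all genes. DESeq2 passed the slopes of Myh11 and Mylk (0.362% of all genes), and limma voom passed that of Myh11 (0.108%). Gene and score come from the same library, so they share its sort and depth. Over all members the median slope was 0.44, beside -0.01 over all genes. Of the 9 groups, the library richer in pericyte markers was also the one with more Myh11, Mylk, Tagln and Myl9 in 6. It had more Acta2, Tpm2 and Actn1 in 5, more Tpm1 in 4, more Cnn1 in 3 and more Cnn2 in 2. The KK/HlJ ISO libraries of a day hardly differed in the marker sum, by 1.05 times at day 14 and 1.01 times at day 21.

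**Figure D3:**
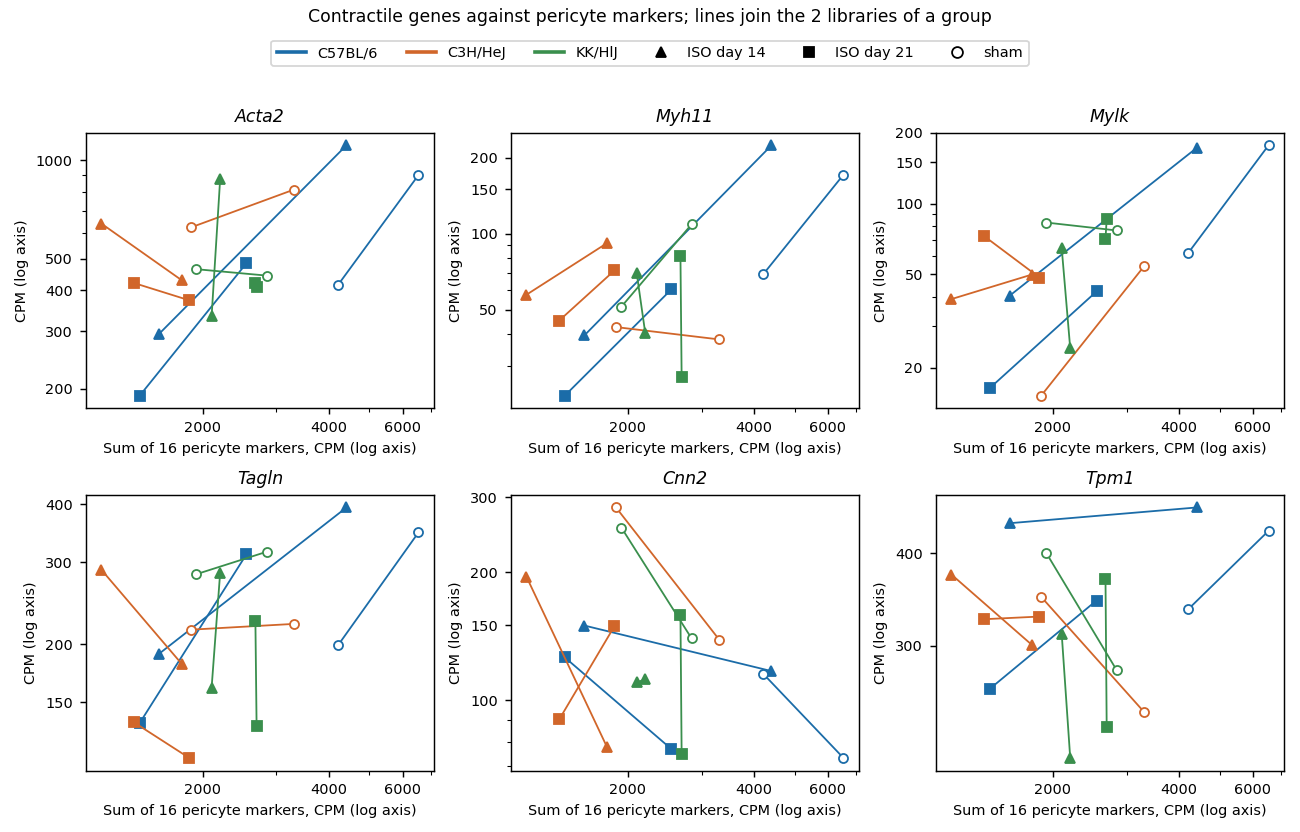
CPM of 6 contractile genes against the summed CPM of 16 pericyte markers, both on log axes, in the 18 libraries; lines join the 2 libraries of a group, colours are strains, and triangles, squares and open circles are ISO day 14, ISO day 21 and sham. The 3 C57BL/6 lines climb for Acta2, Myh11 and Mylk, while those of C3H/HeJ and KK/HlJ have no common direction, and the Cnn2 lines mostly descend.

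The slopes of Acta2, Tagln and Myl9 rested on C57BL/6, the strain with the widest range of pericyte markers. Without the C57BL/6 libraries the slope was -0.06 (SE 0.43) for Acta2, -0.25 (SE 0.42) for Tagln, -0.02 (SE 0.41) for Myl9, 0.70 (SE 0.61) for Myh11 and 0.80 (SE 0.64) for Mylk, the last 2 smaller and with wider errors than in all strains. The negative slope of Cnn2 was steeper, at -1.21 (SE 0.51), in that fit. Without the C3H/HeJ libraries, by contrast, Acta2 had 1.30 (SE 0.31) and Myh11 1.71 (SE 0.37), and without the KK/HlJ libraries Acta2 stayed at 1 (SE 0.27) and Myh11 had 1.39 (SE 0.27). Leaving out the C57BL/6 libraries with the highest and the lowest pericyte score (sham replicate 1 and ISO day 21 replicate 2) left 0.73 (SE 0.33) for Acta2 and 1.29 (SE 0.39) for Myh11. Over the fits that leave out 1 library at a time, the slope of Myh11 ran from 1.18 to 1.65, that of Mylk from 1.19 to 1.45, that of Acta2 from 0.66 to 1.11 and that of Cnn2 from -1.08 to -0.57. Myh11 passed without C3H/HeJ sham replicate 1 or 2, and Mylk without KK/HlJ ISO day 14 replicate 1 or 2, but with the same 15762 genes tested neither did (edgeR adjusted p of 0.157 to 0.219). Leaving out either library of a group takes that group out of the slope, so leaving out replicate 1 or 2 gives nearly the same fit. Without the 4 libraries that stood apart, Myh11 had a slope of 1.64 (SE 0.22). C3H/HeJ sham and all KK/HlJ groups then keep a lone library and add nothing to the slope. That value therefore rests on C57BL/6 and the C3H/HeJ ISO groups.

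The choice of marker set mattered for Acta2. On a score made of the 16 other smooth muscle markers, such as Des, Smtn, Sncg and Lmod1, its slope was 1.71 (SE 0.25; edgeR adjusted p = 0.0227), and Acta2 was the 1 gene of 15762 that passed (0.00634%). Tagln had 1.16 (SE 0.27) on that score, Myh11 1.45 (SE 0.54) and Mylk 1.42 (SE 0.54), with edgeR adjusted p of 1 each, and Cnn2 had -0.46 (SE 0.40). In 7 of 9 groups for Acta2, Tpm2 and Actn1, in 8 for Tagln, in 6 for Myh11, Myl9 and Tpm1, in 5 for Cnn1 and in 4 for Mylk and Cnn2, the library with more of these smooth muscle markers had more of the gene. The smooth muscle and pericyte scores correlated at 0.76 over the 18 libraries. They differ in range, so the sizes of slopes on them are not directly comparable. Pln, a gene of the smooth muscle score, is also on the cardiomyocyte list.

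At equal pericyte score, the ISO differences of Acta2, Tagln, Myh11, Myl9 and Mylk were higher than without the score. That shift follows from their positive slopes and the lower mean score after ISO, so it adds nothing to the slopes. Single markers of the score still differed at day 21, such as Abcc9 at 1.04 (SE 0.32) and Cox4i2 at -0.88 (SE 0.31), though neither passed. Of the 10 genes 0 passed, where 0.019% of all genes did at each day. At day 21 the log2 fold change over the 3 strains was -0.06 (SE 0.31) for Acta2, against -0.65 without the score, and -0.27 (SE 0.28) for Tagln, against -0.61. Myl9 had -0.40 (SE 0.28), Myh11 0.34 (SE 0.34) and Mylk 0.52 (SE 0.37). Tpm2, whose slope was near 0, kept -0.76 (SE 0.33; edgeR adjusted p = 0.729). Cnn2 had -0.89 (SE 0.29; edgeR adjusted p = 0.626), the lowest value of the 10. The median of the members at day 21 was -0.11, against -0.51 without the score, and Cnn2 and Tpm2 were the 2 of 10 at an unadjusted p under 0.05 (6.71% of all genes). Without the 4 libraries that stood apart, the equal-score values were 0.26 for Acta2, 0.00 for Tpm2, -0.42 for Cnn2 and 0.96 for Myh11, so the Tpm2 and Cnn2 values lay closer to 0 without those libraries.

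At day 14, equal score left Acta2 at 0.58 (SE 0.31; edgeR adjusted p = 0.703), Myh11 at 0.92 (SE 0.34; edgeR adjusted p = 0.545), Mylk at 0.64 (SE 0.36) and Actn1 at 0.66 (SE 0.35). Cnn2 had -0.73 (SE 0.29; edgeR adjusted p = 0.585). The median of the members was 0.43, beside 0.01 over all genes, and Myh11 and Cnn2 were the 2 of 10 at an unadjusted p under 0.05 (7.54% of all genes). Without the 4 libraries Myh11 had 1.47, with a slope that then rested on C57BL/6 and the C3H/HeJ ISO groups. By strain at equal score, the Acta2 values at day 14 were 0.84 (SE 0.51) in C57BL/6, 0.42 (SE 0.50) in C3H/HeJ and 0.48 (SE 0.44) in KK/HlJ, and at day 21 they were 0.38 (SE 0.60), -0.22 (SE 0.47) and -0.34 (SE 0.44). None of these 6 values passed. Myh11 and Mylk differed more between strains at equal score, at 1.84 (SE 0.54) and 1.67 (SE 0.60) in C3H/HeJ at day 14, against -0.25 (SE 0.49) and -0.72 (SE 0.50) in KK/HlJ, a difference that was not tested. These values apply 1 slope per gene to all strains, and the slope of Acta2 rested on C57BL/6.

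**Figure D4:**
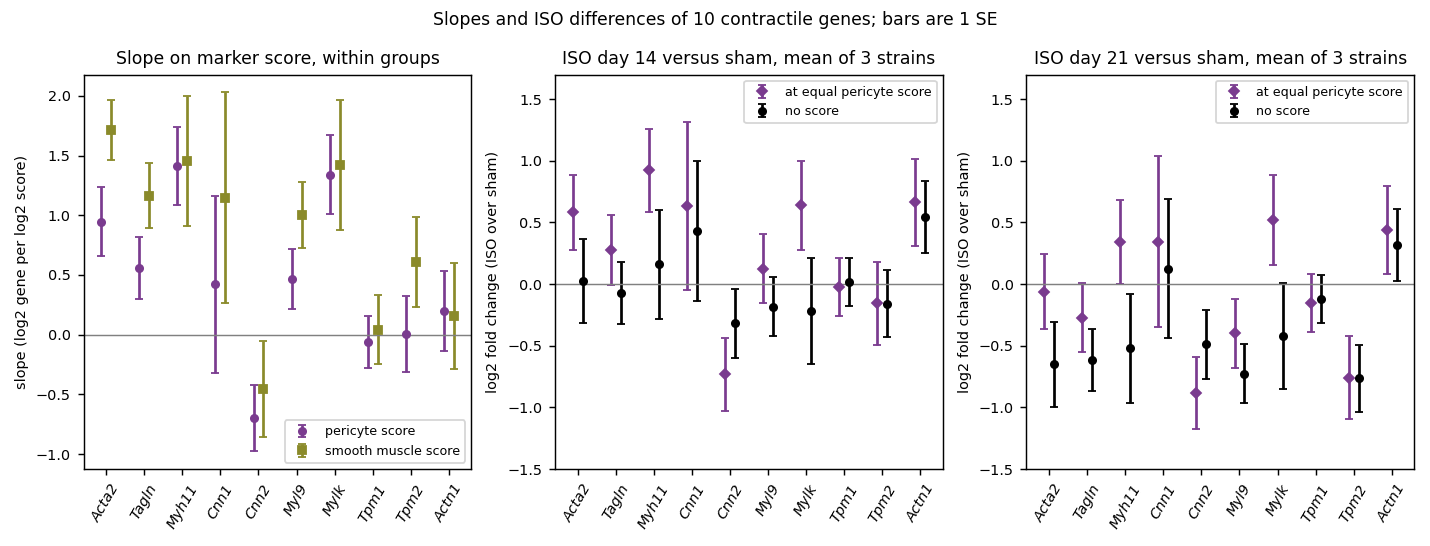
Left, slope of each contractile gene on the pericyte score (circles) and on the smooth muscle score (squares) between libraries of 1 group; middle and right, log2 fold change of ISO over sham averaged over 3 strains at day 14 and day 21, at equal pericyte score (diamonds) and without the score (black circles); bars are 1 SE. Acta2 has the highest smooth muscle slope (1.71), Cnn2 has negative slopes on both scores, and at day 21 the Acta2 difference is -0.06 at equal score and -0.65 without it.

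Other genes of the pathway did not pass the ISO test either. Of 28 actin and serum response factor pathway genes, 0 passed at either day, with median log2 fold changes of 0.04 at day 14 and -0.07 at day 21. Their lowest p belonged to Csrp2, a LIM-domain protein of smooth muscle (0.71, SE 0.27; edgeR adjusted p = 0.805), at day 14 and to Csrp1, its relative (-0.42, SE 0.19; edgeR adjusted p = 0.953), at day 21. Of 16 other smooth muscle markers, the lowest p at day 14 belonged to Actg2, with a positive value (2.76, SE 0.89; edgeR adjusted p = 0.642). Its level was low, at 0 to 16.5 CPM over the libraries. At day 21 the lowest p belonged to Des, the intermediate filament protein desmin, with a negative value (-0.99, SE 0.28; edgeR adjusted p = 0.604).

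Genes of the activated fibroblast state behaved otherwise in the same libraries. Of 18 such genes 4 rose and 0 fell at each day, the risers being Postn, Ltbp2, a matrix protein that binds fibrillin, Sfrp2, a secreted modulator of Wnt signals, and Cilp, a matrix protein, and 18 of 18 had positive values at day 14 and 17 of 18 at day 21, with medians of 1.17 and 1.11. The list was compiled with earlier results of these data known, so its direction is no independent evidence. Its median slope on the pericyte score was 0.00 and that of the 12 resting fibroblast markers -0.18, while the 16 other smooth muscle markers had 0.66. Endothelial markers (0 of 10 passed), macrophage markers (0 of 9 tested), cardiomyocyte markers (0 of 14), Schwann and glia markers (0 of 10), mesothelial and epicardial markers (0 of 10) and resting fibroblast markers (0 of 12) did not pass in the mean over strains at either day. At day 21, all 10 endothelial markers (median 0.61) and all 9 macrophage markers tested (median 2.34) had positive values. C3H/HeJ ISO day 21 replicate 1 had the highest endothelial sum (1803 CPM, against a median of 560 CPM over libraries) and macrophage sum (218 CPM, against 15.9 CPM), and the part of these cells in the day 21 values was not tested. Of 10 Schwann and glia markers, 9 had negative values at day 21 (median -0.54). They summed to 184 and 160 CPM at ISO day 21, against 199 and 181 CPM in sham, in C57BL/6, to 117 and 138 CPM, against 278 and 273 CPM in sham, in C3H/HeJ and to 169 and 134 CPM, against 219 and 212 CPM in sham, in KK/HlJ. Their part in the day 21 values was not tested.

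The genes whose log2 levels went most closely with 3 of the members over the 18 libraries were taken from 10047 genes with a mean of at least 5 CPM. For Acta2 they were Nrip2 (Pearson 0.83, Spearman 0.70), Des (Pearson 0.79, Spearman 0.82), Sncg (Pearson 0.79, Spearman 0.82), Ptp4a3 (Pearson 0.79, Spearman 0.82) and Tmem104 (Pearson 0.77, Spearman 0.63). Nrip2, Des and Sncg are in the list of smooth muscle markers. For Myh11 they were Lrpprc (Pearson 0.88, Spearman 0.91), Itga8 (Pearson 0.80, Spearman 0.82), Casq2 (Pearson 0.77, Spearman 0.71), Ano1 (Pearson 0.76, Spearman 0.66) and Mrvi1 (Pearson 0.75, Spearman 0.60), of which Itga8 and Casq2 are in that list. For Cnn2 they were Spon2 (Pearson 0.90, Spearman 0.83), Lsp1 (Pearson 0.80, Spearman 0.68), Dbi (Pearson 0.78, Spearman 0.75), Rhoc (Pearson 0.77, Spearman 0.64) and Pdzd11 (Pearson 0.76, Spearman 0.67), none of which is in it. These are the highest of many correlations and describe these libraries, whose depth and sort the 2 genes of a pair share.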

How the data were processed

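RNA-seq counts of 18 libraries of Thy1+ heart cells were analysed. The deposited values are whole-number read counts per Ensembl gene, with no normalization by the authors. Per the submitters' processing notes, FastQC, STAR 2.5.3a, edgeR and mm10 were used. Per the labels' protocols, mRNA libraries were read as 50 nt single ends. The read counter, its annotation and its use of strand: not given in the sources used here. GENCODE M21 gave symbols and coordinates for 53237 of 53342 identifiers, and the 105 others held 0.00159% of reads and stayed out.

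Groups were compared by the quasi-likelihood test of edgeR (version 4.0.16, R 4.3.3; TMM, robust, default filter on groups) in 1 fit of all libraries with 9 group terms, which leaves 9 residual degrees of freedom. It covered 15762 genes. P-values were adjusted by Benjamini-Hochberg over all of them, with a call at 0.05. The SE is the size of the fold change over the root of F. The pericyte score, the centred log2 of summed marker CPM, was added as a term in further fits. Log2 CPM used a prior count of 2.

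The 10 genes, the marker and pathway lists and the tests were chosen with earlier results of these data known. Named besides the 10 were up to 4 passing genes per list and comparison, else the 2 with the lowest p, and the 5 most alike genes (Pearson) of Acta2, Myh11 and Cnn2. Postn was named as a gene earlier known to rise with ISO in these data. Of these, the text gives those that bear on the 10. Alternatives were DESeq2 1.42.0, RLE scaling, other filters, limma 3.58.1 voom, a replicate block, other scores and libraries left out. Chosen after seeing the data were the score fits per strain and the slope fits without a strain or without the C57BL/6 libraries of highest and lowest score, and the repeats of fits with libraries left out that kept the 15762 genes. Tests were checked on simulated data. Counting error is small beside the spread between libraries, and precision is limited by 2 libraries a group.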

Additional observations from a re-analysis of the deposited data

How the results depend on the processing

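In the main fit no member passed in any comparison, so no call could be lost. Over 33 alternative settings, 6280 of 6330 values for the 10 genes again did not pass, which alone does not show that their size held. The other 50 newly passed, 0 of them with the other sign. Of the values that did not pass in either fit, 358 changed sign. Without the 4 libraries that stood apart, where C3H/HeJ sham and all KK/HlJ groups keep a lone library that is assumed to vary like the rest, the number of members past the threshold was 2 in C57BL/6 at day 21 (Myh11, Mylk), 1 in C3H/HeJ at each day (Actn1), 2 for the mean of strains at day 21 (Acta2, Myl9) and 3 for C57BL/6 day 21 over day 14 (Actn1, Myh11, Mylk). In that fit it was 1 for each pair of sham groups (Myh11 for C3H/HeJ over C57BL/6, Cnn1 for KK/HlJ over each other strain), 1 for the C3H/HeJ over C57BL/6 response at day 21 (Actn1), 1 at equal score at day 14 (Myh11) and 1 for the pericyte slope (Myh11). Leaving out these libraries also raised the number of genes tested, from 15762 to 17629. In each of these comparisons more of all genes passed than with all libraries, so the rise was not particular to the members. With the 15762 genes kept, an alternative chosen after seeing the data, the last 2 counts were again 1 (Myh11) and the others 0, and with 1 library left out at a time every count was 0. With no filter on low counts it was 3 for the slope (Acta2, Myh11, Mylk, with 81 genes in all, 0.309%). It was 1 for the C3H/HeJ over C57BL/6 response at day 21 (Mylk, with 0.122% of all genes). DESeq2 gave 2 for the slope (Myh11, Mylk, with 0.362% of all genes), voom 1 (Myh11, with 0.108%) and the smooth muscle score 1 (Acta2, with 0.00634%). With 1 library left out at a time, the count ran from 0 to 2 in KK/HlJ at day 21 (Tpm2 and Actn1, without KK/HlJ sham replicate 2) and from 0 to 1 in C57BL/6 at day 21 (Mylk, in 8 of these fits), for the mean at day 21, for C57BL/6 day 21 over day 14, for C3H/HeJ over C57BL/6 sham, for the C3H/HeJ and KK/HlJ over C57BL/6 responses at day 21 and for the slope, and from 0 to 0 otherwise. Without KK/HlJ sham replicate 2, more of all genes also passed in KK/HlJ at day 21 than with all libraries. RLE scaling moved the median of all genes by at most 0.08 in log2. The replicate numbers showed no common pairing of the samples. Deviations of same-numbered libraries correlated at -0.144 to 0.163 over 36 pairs of groups, with 9 pairs over 0.1. The 4 libraries that stood apart were all replicate 1, and a batch shared by some of the groups was not tested. With the replicate number as a block 0 members passed in each comparison, and the median slope was 0.68, against 0.44 without it. With 2 libraries a group, SEs of 0.34 to 1.01 within strains limit what could be seen to large changes.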
